A study of Mus musculus with 8 samples.

Results

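The genes of cholesterol synthesis were followed here through retinoic acid (RA) treatment of mouse embryonic fibroblasts (MEFs) that lack TAF4. The set was 8 named genes: the enzyme genes Hmgcs1, Idi1, Fdps, Fdft1, Sqle, Cyp51 and Dhcr7, and the regulator Insig1. Members were found as the rows of the deposited table that carry one of these symbols, which gave 7 of its 22200 genes. No row carries the symbol Hmgcs1, so this gene was not analysed here. No member encodes a receptor for cholesterol uptake, although the set was named for synthesis and uptake; uptake genes were read from a separate list. All 7 genes found passed the filter on low values and were among the 12673 genes tested.

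All 8 libraries were of polyA RNA from immortalised MEFs labelled TAF4-/-, of C57BL/6 background. They fall into 3 groups, with 3 untreated libraries labelled 12 h, 3 of cells treated with RA for 12 h, and 2 of cells treated with RA for 72 h. The study's methods name 1 TAF4-null line, C3, made by Cre defloxing of lox/- MEFs, whereas the library titles carry cl1, close to the study's name for the TAF4-expressing line. No untreated library was labelled 72 h, so RA treatment and time in culture cannot be told apart at 72 h. Values are quantile-normalised reads per gene, called normalised reads below, and every column has the same distribution, so the depth of each library is unknown. No source says whether the libraries came from separate cultures, and p-values then measure only the spread between these libraries, which may be technical.

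Spearman's rho between libraries of 1 group lay between 0.981 and 0.994 over the genes tested. Taf4a, the gene targeted by the knock-out, was listed at 984 to 1449 normalised reads in all 8 libraries, and the sources do not say which part of the gene these reads cover, so this does not check the genotype. Cyp26b1, an RA-degrading enzyme gene that RA induces, lay at 40.4 to 73.0 normalised reads in untreated cells and at 3252 to 6306 in all 5 RA libraries. Of 8 fibroblast markers, which summed to 216191 to 256938 normalised reads, Thy1 alone was near the floor of 1, at 1 to 3.5. Of the 7 tested, 0 passed at 12 h, while at 72 h against untreated Col3a1 (log2 change -1.43, limma adjusted p = 8.25e-06) and Col1a2 (-0.47, limma adjusted p = 0.0239) were lower and Pdgfrb (0.51, limma adjusted p = 0.0132) higher. Macrophage, epithelial, endothelial and hepatocyte markers each summed to at most 90.5 normalised reads in any library. The 4 adipocyte markers in the table summed to 107 to 131 normalised reads in untreated cells, 149 to 178 at 12 h and 224 to 269 at 72 h. Nearly all of this was Fabp4, which passed the test at 72 h (log2 change 1.09, limma adjusted p = 0.000488), while Adipoq stayed at 1 to 2.5. Their part in the results below was not tested. In bulk RNA, fewer cells of a type and less RNA per cell cannot be told apart.

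Animal cells build cholesterol from acetyl-CoA through mevalonate, isoprenoid pyrophosphates, squalene and lanosterol. Many genes of this chain are read by the transcription factor SREBP2, which is held in the endoplasmic reticulum with SCAP when sterols are plentiful and released when they are scarce. INSIG1 is the protein that holds SCAP there, and its own gene is an SREBP target, so its RNA is often used as a readout of the same system. RA acts through nuclear receptors of the RAR and RXR families, and RXR is also the partner of the oxysterol receptor LXR.

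Promoter windows from 250 bases before to 50 bases after a start site were given for 4 of the 7 genes (RefSeq, GRCm38.p6): Insig1, Idi1, Cyp51 and Dhcr7. The 250 bases before the start are shown for the gene that moved most and for 2 enzyme genes, 5′ to 3′ along the gene. Capitals mark the CCAAT box, which NF-Y, a cofactor of SREBP at many sterol promoters, is known to bind, and which appears as ATTGG where it lies on the other strand.
Insig1, chr5:28071162-28071411, plus strand: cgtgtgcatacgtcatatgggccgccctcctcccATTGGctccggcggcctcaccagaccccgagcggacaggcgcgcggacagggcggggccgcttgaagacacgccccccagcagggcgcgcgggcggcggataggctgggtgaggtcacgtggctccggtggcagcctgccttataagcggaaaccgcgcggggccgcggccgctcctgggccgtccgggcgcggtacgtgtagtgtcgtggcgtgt
Idi1, chr13:8885356-8885605, plus strand: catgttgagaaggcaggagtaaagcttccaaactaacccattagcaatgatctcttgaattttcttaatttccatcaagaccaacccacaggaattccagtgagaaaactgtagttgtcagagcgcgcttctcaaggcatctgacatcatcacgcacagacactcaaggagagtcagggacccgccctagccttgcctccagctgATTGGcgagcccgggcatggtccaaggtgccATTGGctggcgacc
Cyp51, chr5:4104698-4104947, minus strand: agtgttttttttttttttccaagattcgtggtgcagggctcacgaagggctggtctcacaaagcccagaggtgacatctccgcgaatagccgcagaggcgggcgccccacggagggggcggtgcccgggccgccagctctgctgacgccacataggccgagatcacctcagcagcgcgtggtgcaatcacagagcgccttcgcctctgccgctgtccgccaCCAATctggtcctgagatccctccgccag

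CCAAT was found on either strand in 4 of the 6 windows of these 4 genes, and 37.4% of the 32851 windows in the reference hold it. Its first base lay 216 bases before the start in Insig1, 45 and 14 bases before it in Idi1, and 29 bases before it in Cyp51. Dhcr7 has several windows, some of which overlap. A single one of them held CCAAT, with first bases 85 and 49 bases before its start. The letters TCACNCC, part of the sterol regulatory element, were in 0 of these 6 windows and in 15.6% of all windows. TCACNCC was the only form of this element searched, so other forms of it would be missed. These are matches of letters within short windows and no site of binding was measured.

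By their mean over the 8 libraries the 7 genes were well expressed, between the 58.5th and the 87.8th percentile of level among the genes tested. Levels between genes in untreated cells were compared per kilobase of annotated exon (mm9). Fdps, which makes farnesyl pyrophosphate, was highest at 975 ± 100.5 normalised reads per kb (SD, n = 3). Idi1, the isomerase of isopentenyl pyrophosphate, was at 328 ± 23.0 (SD, n = 3), and Fdft1, the squalene synthase, was at 274 ± 34.5 (SD, n = 3), both in normalised reads per kb. The ranges of these 2 genes overlapped, so their order is not fixed. Below them lay Cyp51, the lanosterol demethylase, at 199 ± 18.3 normalised reads per kb, and Insig1 at 177 ± 14.9 (SD, n = 3 for each), whose ranges also overlapped. Sqle, the squalene epoxidase and a rate-controlling step, was at 109 ± 8.20 normalised reads per kb, and Dhcr7, which makes cholesterol from its immediate precursor, was lowest at 72.1 ± 1.86 (SD, n = 3 for each). The labels describe tags cut beside a DpnII site while the methods describe fragmented RNA, and scaling by length applies only to the second. Without it the order of the untreated means was Fdps (1202 normalised reads), Idi1 (940.1), Cyp51 (854), Fdft1 (784), Sqle (606), Insig1 (468) and Dhcr7 (273), so Cyp51 moved above Fdft1 and Sqle above Insig1.

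RA treatment for 12 h was compared with untreated cells. Of the 7 genes only Insig1 passed the test, rising 1.56-fold, while the 6 enzyme genes had positive differences that did not pass. Passing means an adjusted p below 0.05 in limma after adjustment over all genes tested, and 4.37% of all genes passed in this comparison in either direction (2.87% higher). A change was also counted as called when it passed and was at least 2-fold, as 1.42% of all genes were, and 0 of the 7 genes were called.

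Insig1 (mm9, chr5:28397952-28405201, plus strand) was listed at 433, 459 and 510 normalised reads in the untreated libraries. In the RA 12 h libraries it was listed at 696, 758 and 739 normalised reads. All RA 12 h libraries lay above all untreated libraries. The mean rose from 468 ± 39.3 to 731 ± 31.9 normalised reads (SD, n = 3 for each), a log2 change of 0.65 ± 0.12 (SE, 95% interval 0.39 to 0.90, limma adjusted p = 0.00532). It passed in 15 of 15 alternative analyses, with log2 changes of 0.59 to 0.71 and limma adjusted p from 0.000262 to 0.0441.

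The early enzymes come next. Idi1 (mm9, chr13:8884852-8891641, plus strand) was listed at 1014, 886 and 921 normalised reads in untreated cells and at 1238, 1195 and 969 at 12 h. RA 12 h replicate 3 fell inside the untreated range and the other two lay above it. The log2 difference was 0.26 ± 0.11 (SE, 95% interval 0.02 to 0.50, limma adjusted p = 0.253). Fdps (mm9, chr3:88897514-88905881, minus strand) was listed at 1213, 1073 and 1320 normalised reads in untreated cells and at 1283, 1334 and 1139 at 12 h, and the groups overlapped. Its log2 difference was 0.06 ± 0.11 (SE, 95% interval -0.17 to 0.29, limma adjusted p = 0.817). Near-identical copies of both transcripts lie elsewhere in mm9, 2 for Idi1 (up to 99.3% identity) and 2 for Fdps (up to 98.8%). How the counting assigned reads to these copies is not stated, so both genes' values are uncertain.

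At the branch to sterols, Fdft1 (mm9, chr14:63763990-63796630, minus strand) was listed at 755, 702 and 893 normalised reads in untreated cells and at 743, 867 and 785 at 12 h. The groups overlapped, with a log2 difference of 0.03 ± 0.11 (SE, limma adjusted p = 0.920), and its sign turned in 3 of 15 alternatives. Sqle (mm9, chr15:59146632-59162747, plus strand) was listed at 651, 605 and 560.1 normalised reads in untreated cells and at 763, 694 and 665 at 12 h. Here the groups did not overlap, and each RA library was higher. The log2 difference was 0.22 ± 0.10 (SE, 95% interval 0.002 to 0.45), with a limma adjusted p of 0.302.

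In the late steps, Cyp51 (mm9, chr5:4081145-4104746, minus strand) was listed at 773, 929.9 and 860.1 normalised reads in untreated cells and at 958, 969.5 and 949.8 at 12 h. The RA libraries lay close together, at 959 ± 9.95 (SD, n = 3), just above the highest untreated library, with a log2 difference of 0.17 ± 0.10 (SE, limma adjusted p = 0.420). Dhcr7 (mm9, chr7:151009050-151034315, plus strand) was listed at 281, 269 and 269 normalised reads in untreated cells and at 291, 285 and 293 at 12 h. These groups did not overlap either, but the log2 difference was only 0.08 ± 0.10 (SE, limma adjusted p = 0.733). Its 95% interval ran from -0.14 to 0.31.

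**Figure D1:**
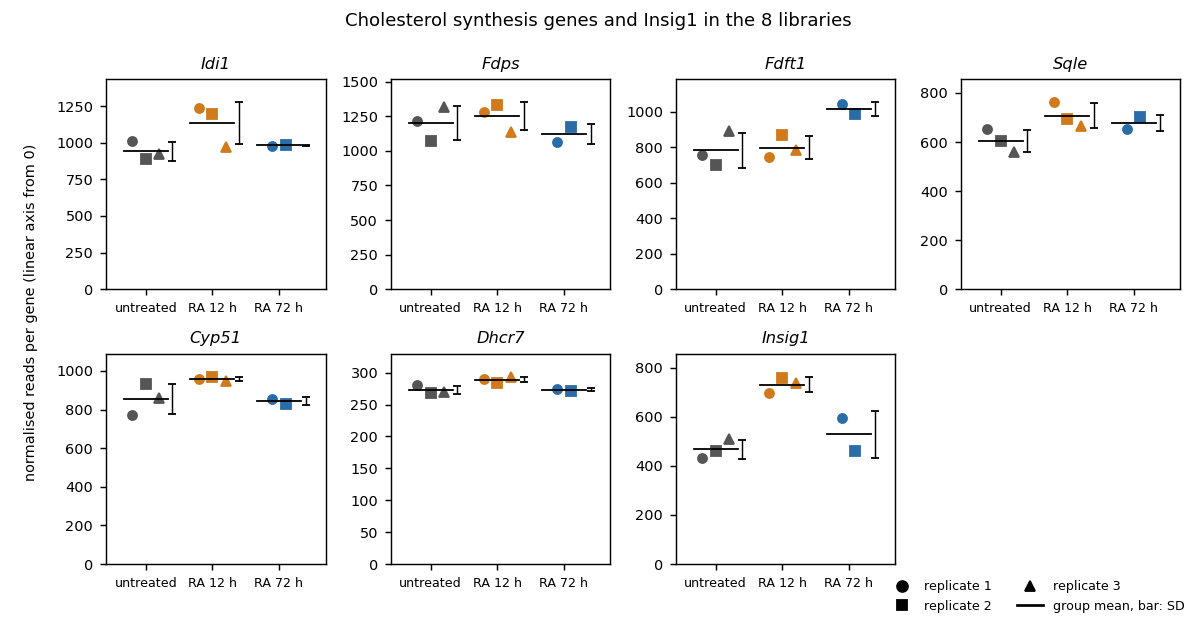
Normalised reads per gene (linear axis from 0) of the 7 genes in the untreated, RA 12 h and RA 72 h libraries; each point is 1 library, shaped by its replicate number, with the group mean as a line and the SD as a bar (n = 3, 3 and 2). The Insig1 points at RA 12 h, 696 to 758, lie above all untreated points, and the Fdft1 points at RA 72 h, 989 and 1044, lie above all others of that gene.

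Across the set, 4 of 7 genes had RA 12 h libraries wholly above the untreated ones (Insig1, Sqle, Cyp51 and Dhcr7), where 9.42% of all genes tested did. All 7 log2 differences were positive, as were 6017 of the 12673 genes tested, with a median of 0.17, beside -0.02 over all genes. The other synthesis enzymes did not share this. Of 11 tested, 3 had positive differences, with a median of -0.14, and 0 lay wholly above untreated and 4 wholly below. At an unadjusted p under 0.05, 3 of the 7 lay higher (Insig1, Idi1 and Sqle), against 7.96% of all genes. The summed level of the 7 genes was 5121, 4924 and 5333 normalised reads in the untreated libraries and 5970.4, 6101.5 and 5539 at 12 h. The sum was lowest in RA 12 h replicate 3, yet still above every untreated library. It is weighted by the abundant Fdps and Idi1, whose values are uncertain.

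Libraries of 1 group differed mainly along a single axis, which held 50.1% of the within-group variance of all genes tested. Its first side held replicates 1 and 2 of the untreated group, replicate 3 of the RA 12 h group and replicate 2 of the RA 72 h group, and its second side held the rest. No label names this split. The axis was drawn from the same values, so a fit with the side as a term removes spread by construction. Its p-values can then be too small. Insig1 was higher at 12 h on both sides, by 0.73 and 0.51 in log2. Idi1 and Sqle differed by 0.03 and 0.08 in log2 on the first side and by 0.40 and 0.38 on the second. Cyp51 differed by 0.16 on both sides.

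RA treatment for 72 h was compared with the same untreated libraries, so the 2 comparisons with untreated cells share their controls. None of the 7 genes passed limma's test at 72 h, where 11.5% of all genes did, and 0 of 7 were called at 2-fold, where 3.67% were. At an unadjusted p under 0.05, 1 of 7 (Fdft1) lay higher, against 11.5% of all genes. The largest difference was that of Fdft1, whose product commits farnesyl pyrophosphate to sterols.

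Fdft1 was listed at 1044 and 989 normalised reads at 72 h, against 702 to 893 in untreated cells and 743 to 867 at 12 h. Both libraries lay above the other 6. The log2 difference from untreated was 0.38 ± 0.12 (SE, 95% interval 0.11 to 0.65, 1.30-fold, limma adjusted p = 0.0696). It passed in 2 of 15 alternatives. The first was the fit without untreated replicate 3 (0.48, limma adjusted p = 0.0119). The other had the side of the within-group axis as a term (0.36, limma adjusted p = 0.0140), a setting that removes spread by construction. On the 2 sides taken alone it was 0.44 and 0.22.

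The Fdft1 gene shares 769 bases with Ctsb, the cathepsin B gene on the opposite strand, and the sources do not say whether counting used strand. Ctsb was listed at 16601, 16747 and 14559 normalised reads in untreated cells, at 15085, 17270 and 19652 at 12 h, and at 22110 and 27160 at 72 h. Ctsb passed at 72 h (log2 change 0.62 ± 0.14 SE, limma adjusted p = 0.0127), and its part in the Fdft1 difference was not tested. The Fdft1 transcript also has 1 near-identical copy elsewhere in mm9, at 97.4% identity.

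The other synthesis enzymes lay close to their untreated levels at 72 h. Sqle was listed at 655 and 701 normalised reads, both just above the highest untreated library, with a log2 difference of 0.16 ± 0.12 (SE, limma adjusted p = 0.433). Idi1 at 980 and 984, Fdps at 1067 and 1169, Cyp51 at 857 and 828, and Dhcr7 at 275 and 272 normalised reads all fell within the untreated range or overlapped it. Their log2 differences ran from -0.10 for Fdps to 0.07 for Idi1, with limma adjusted p from 0.673 to 0.989.

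Insig1 was listed at 597 and 459 normalised reads at 72 h, so the pair of libraries disagreed: replicate 1 lay above all untreated libraries and replicate 2 had exactly the value of untreated replicate 2. The log2 difference from untreated was 0.17 ± 0.13 (SE, 95% interval -0.12 to 0.45, limma adjusted p = 0.493). Without RA 72 h replicate 1 it was -0.02. Over the 7 genes, 2 (Fdft1 and Sqle) had both 72 h libraries above all untreated ones, where 17.2% of all genes did, and the median log2 difference was 0.07, beside -0.02 over all genes.

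**Figure D2:**
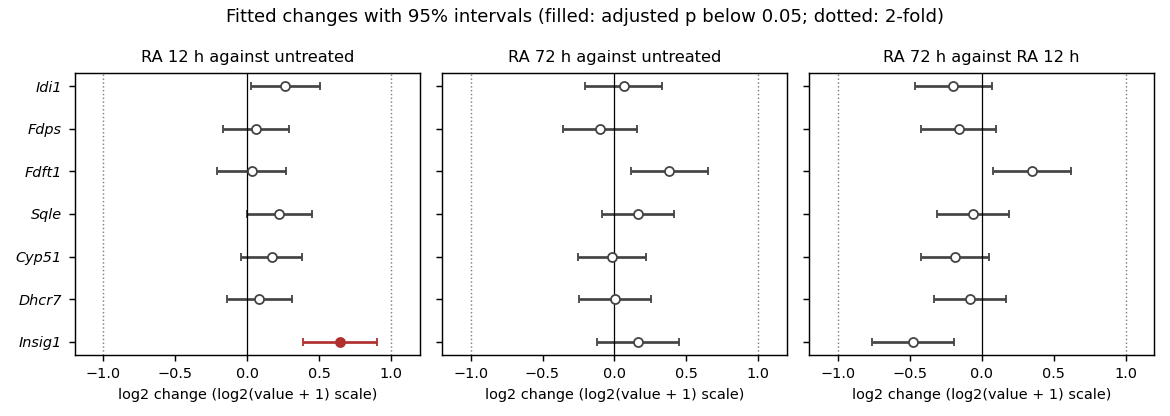
Log2 change of each of the 7 genes in the 3 comparisons on the log2(value + 1) scale, with 95% intervals from limma; filled points passed at an adjusted p below 0.05, and dotted lines mark 2-fold. Insig1 at RA 12 h (0.65) is the single filled point, and every interval lies inside the 2-fold lines.

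The direct comparison of RA 72 h with RA 12 h asks whether the early difference lasted. None of the 7 genes passed limma's test, against 5.84% of all genes, and 0 were called at 2-fold, against 1.5%. Insig1 was lower at 72 h by a log2 difference of -0.48 ± 0.13 (SE, 95% interval -0.76 to -0.19, limma adjusted p = 0.0515). The 597 and 459 normalised reads at 72 h lay below the lowest 12 h library, 696. This difference passed in 6 of 15 alternatives, with limma adjusted p from 0.00560 to 0.472 over the 15. It was -0.67 without RA 72 h replicate 1 (limma adjusted p = 0.0426) and -0.29 without RA 72 h replicate 2 (limma adjusted p = 0.472). On the 2 sides of the within-group axis it was -0.68 and -0.28.

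Fdft1 differed the other way, higher at 72 h than at 12 h by 0.35 ± 0.12 in log2 (SE, 95% interval 0.08 to 0.62, limma adjusted p = 0.133), and by 0.33 and 0.38 on the 2 sides. It passed only with the side as a term (0.37, limma adjusted p = 0.0153), which removes spread by construction. Cyp51 and Dhcr7 had both 72 h libraries below all 12 h libraries, with log2 differences of -0.19 and -0.08 (limma adjusted p = 0.402 and 0.787). With Insig1 this made 3 of 7 genes lower without overlap, where 19.2% of all genes were, and 1 (Fdft1) higher, where 18.1% were. At an unadjusted p under 0.05 lay 2 of 7 genes, Insig1 lower and Fdft1 higher, where 18.9% of all genes did in either direction. The median log2 difference over the 7 genes was -0.16, beside -0.002 over all genes, and 1 of 7 was positive.

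The 7 genes did not vary as a block from library to library. Over the 21 pairs of genes, Pearson's r over the 8 libraries had a median of 0.29 and ran from -0.33 (Fdft1 with Dhcr7) to 0.81 (Sqle with Idi1), with 16 pairs positive. Insig1 went with Cyp51 at 0.78 and with Dhcr7 at 0.76. After the group means were removed, the median was -0.10 and 9 of 21 pairs were positive, with Sqle and Idi1 still at 0.69 and Insig1 with Sqle at -0.76. These values are a description over 8 libraries that share 1 normalisation.

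The mean of the genes' standardised log2 levels was -0.49, -0.86 and -0.42 in the untreated libraries, 0.88, 0.90 and 0.29 at 12 h, and -0.11 and -0.18 at 72 h. The genes of most like pattern among 9478 with a mean of at least 50 normalised reads were Nfat5, an osmotic stress transcription factor, with r = 0.98 over the 8 libraries, Gsto1, a glutathione transferase, with 0.98, and Ppp2cb, a phosphatase subunit, with 0.97. Atp11a, Apaf1, Rai14, Glo1, Armet, Myh9 and Gnb5 followed, with r from 0.97 to 0.96. None of these 10 is on a sterol list. The closest gene of the other pathway lists described below was Insig2, at r = 0.83, rank 224. Other genes of these lists ran opposite, the furthest being Lipa at r = -0.895, rank 9412, and the synthesis gene Mvk at -0.826, rank 9240. Among the members themselves, r with this mean ran from 0.90 for Idi1, 0.88 for Insig1 and 0.78 for Dhcr7 to 0.04 for Fdft1, although each is part of that mean.

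Other genes of the pathway were taken from 4 lists: the remaining synthesis enzymes, the isoprenoid branches, uptake and transport, and sterol sensing. Of 39 in the table, 37 were tested. At 12 h 0 of the 37 passed limma's test, where 4.37% of all genes did. At 72 h 3 passed, all lower (11.5% of all genes passed), and at 72 h against 12 h 1 passed, also lower (5.84%). The median log2 differences were -0.08, -0.10 and -0.08, beside -0.02, -0.02 and -0.002 over all genes. Without overlap, 1 of the 37 lay above untreated at 12 h and 9 below, beside 1194 and 1346 of the 12673 genes tested. At 12 h, 4 of the 37 had an unadjusted p under 0.05 in limma, as did 2065 of all genes tested. Insig2 was higher among these 4, while Mvk, Dhdds and Npc2 were lower. Insig2, the second INSIG gene, was also the 1 above without overlap, with a log2 difference of 0.35 ± 0.11 (SE, limma adjusted p = 0.118).

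The gene for SREBP2 itself, Srebf2, differed by -0.15 in log2 at 12 h and by -0.23 at 72 h (limma adjusted p = 0.596 and 0.355), and Scap by -0.08 and -0.16 (limma adjusted p = 0.728 and 0.394).

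The genes that passed were Tm7sf2, Vldlr and Srebf1. Tm7sf2, a sterol reductase, fell at 72 h by 1.03 ± 0.25 in log2 (SE, limma adjusted p = 0.0144), from 46.2 to 56 normalised reads in untreated cells to 20.8 and 28.2. It no longer passed without RA 72 h replicate 1 (-0.82, limma adjusted p = 0.168) and with a replicate block (-1.01, limma adjusted p = 0.0577).

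Vldlr, a lipoprotein receptor, was listed at 83.8, 64.2 and 65.1 normalised reads in untreated cells and at 25.9 and 30.9 at 72 h, a fall of 1.29 ± 0.24 in log2 (SE, limma adjusted p = 0.00302) that passed in 15 of 15 alternatives. It was also the gene that passed at 72 h against 12 h (log2 difference -1.0, limma adjusted p = 0.0255), but not in 7 of 15 alternatives. Srebf1, the gene for SREBP1, which mainly drives fatty acid synthesis, was listed at 331, 339.6 and 312 normalised reads in untreated cells and at 239.8 and 210.4 at 72 h, a fall of 0.54 ± 0.13 in log2 (SE, limma adjusted p = 0.0130). This did not pass without RA 72 h replicate 2 (-0.45, limma adjusted p = 0.140) and with a replicate block (-0.53, limma adjusted p = 0.0552). The most abundant genes of these lists that did not pass were Sc4mol and Acat2 of synthesis, Fnta and Nus1 of the isoprenoid branches, Npc2 and Lrp1 of uptake, and Mbtps1 and Srebf2 of sensing.

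**Figure D3:**
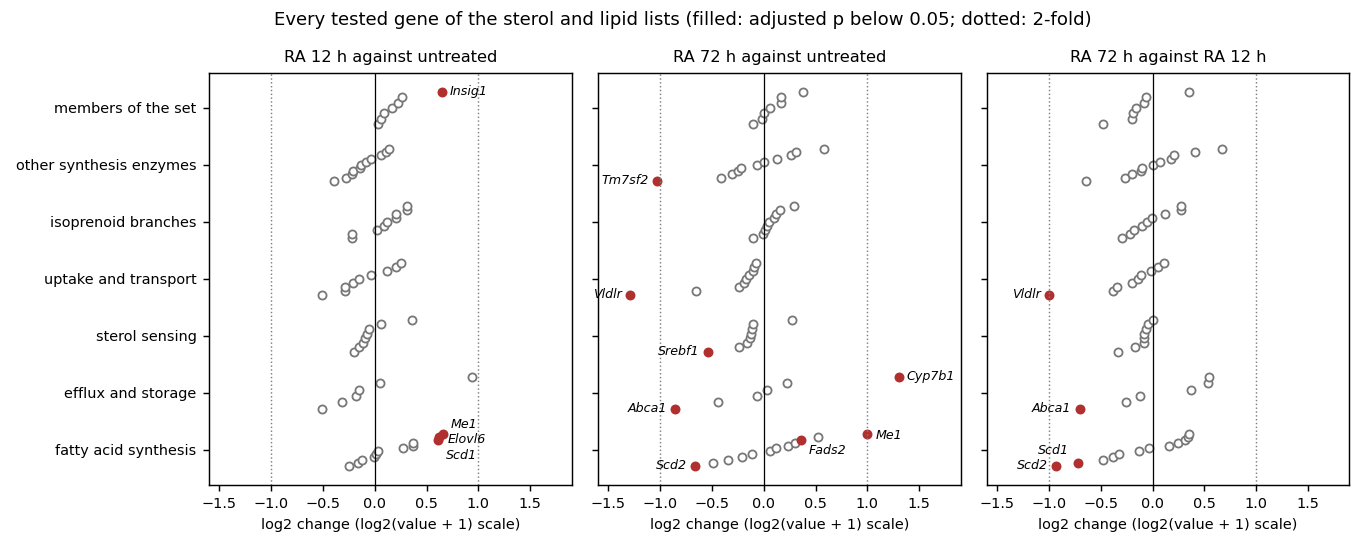
Log2 change (log2(value + 1) scale) of every tested gene of the 7 members and 6 neighbouring lists in the 3 comparisons, 1 point a gene in order of its change; filled, named points passed at an adjusted p below 0.05 and dotted lines mark 2-fold. At RA 12 h the filled points are Insig1 (0.65) and 3 genes of fatty acid synthesis, and at RA 72 h Tm7sf2 (-1.03) and Vldlr (-1.29) are the filled points of the other synthesis enzymes and the uptake genes.

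Fatty acid synthesis, the sister lipid pathway, was the only neighbouring list with genes past the test at 12 h: 3 of 12 rose and 0 fell, where 2.87% of all genes rose. Elovl6, a fatty acid elongase, rose from 617 to 687 normalised reads in untreated cells to 973 to 1057 at 12 h (log2 change 0.62 ± 0.09 SE, limma adjusted p = 0.00121). Scd1, the stearoyl-CoA desaturase, rose from 822 to 1118 normalised reads to 1344 to 1559 (0.61 ± 0.12 SE in log2, limma adjusted p = 0.00789), but did not pass without RA 12 h replicate 1 (0.56, limma adjusted p = 0.0551) or 2 (0.58, limma adjusted p = 0.0595), or with no variance trend (limma adjusted p = 0.0621). Me1, the NADPH-producing malic enzyme, rose by 0.66 ± 0.11 in log2 (SE, limma adjusted p = 0.00350) and stood 1.00 ± 0.13 above untreated at 72 h (SE, limma adjusted p = 0.000163). Scd1 lay lower at 72 h than at 12 h, at 869 and 909.8 normalised reads, within the untreated range. Elovl6 also lay lower than at 12 h (log2 difference -0.32, limma adjusted p = 0.0988), but at 811.9 in both libraries it stayed above the untreated range. The 12 h log2 changes of these 3 genes, 0.61 to 0.66, and that of Insig1, 0.65, are close in size. The list did not move as a whole, as 8 of its 12 genes had positive differences at 12 h, with a median of 0.15. Fasn and Acly, also on this list, differed by -0.25 and -0.17 in log2 (limma adjusted p = 0.361 and 0.543).

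At 72 h against untreated, 2 of the 12 fatty acid genes rose (Me1 and Fads2) and 1 fell (Scd2), where 11.5% of all genes passed in either direction. Fads2, a desaturase, rose by 0.36 ± 0.10 in log2 (SE, limma adjusted p = 0.0411), but did not pass in 11 of 15 alternatives. Scd2 fell by 0.66 ± 0.17 in log2 (SE, limma adjusted p = 0.0242), but did not pass in 5 of 15, among them without untreated replicate 1 (-0.52, limma adjusted p = 0.101) and without either RA 72 h replicate. Of 6 tested genes of efflux and storage, Abca1, the cholesterol exporter and an LXR target, fell at 72 h by 0.86 ± 0.16 in log2 (SE, limma adjusted p = 0.00351), but did not pass without RA 72 h replicate 2 (-0.71, limma adjusted p = 0.0558). Cyp7b1, an oxysterol hydroxylase of low level here (15.9 to 69.8 normalised reads), rose by 1.30 ± 0.34 in log2 (SE, limma adjusted p = 0.0224), which fell short in 6 of 14 alternatives. The most abundant genes of these 2 lists that did not pass were Fasn and Acly, and Nr1h2 and Soat1.

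**Figure D4:**
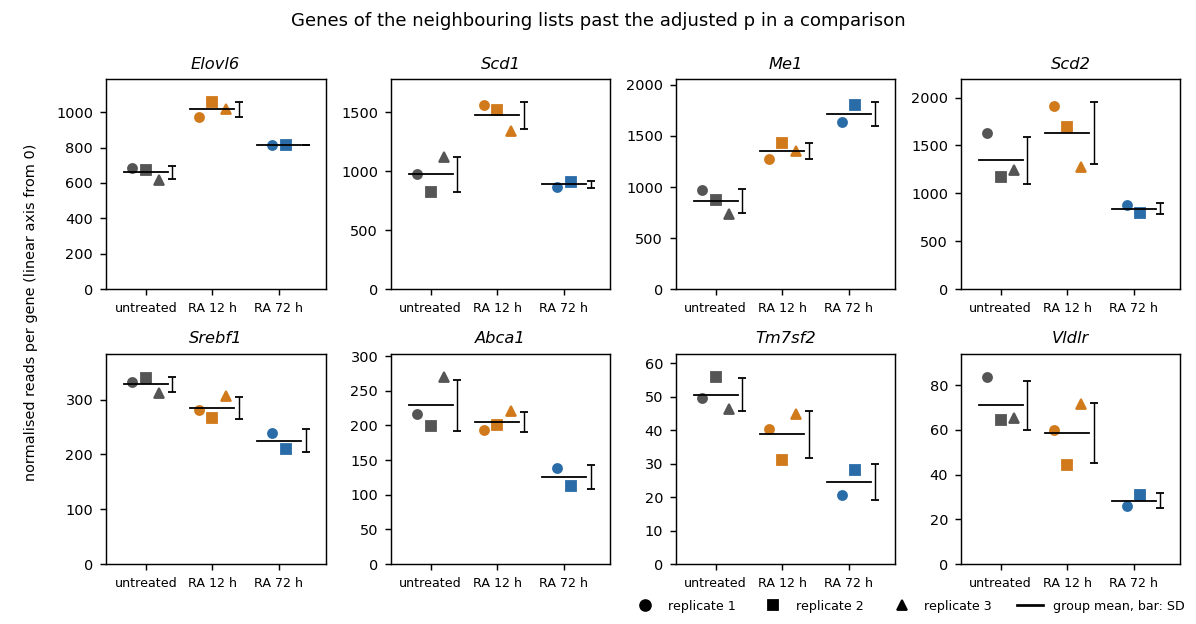
Normalised reads per gene (linear axis from 0) of 8 genes outside the set that passed in a comparison, in the untreated, RA 12 h and RA 72 h libraries; each point is 1 library, with the group mean as a line and the SD as a bar (n = 3, 3 and 2). Elovl6, Scd1 and Me1 lie above their untreated points at RA 12 h, and Vldlr, Tm7sf2 and Srebf1 lie below theirs at RA 72 h.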

How the data were processed

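Polyadenylated RNA was profiled in 8 libraries of MEFs labelled TAF4-null. Per the labels, tags beside DpnII sites were sequenced, whereas the study's methods describe fragmented RNA aligned to mm9 with Tophat, counted with Cufflinks and Ensembl models, and normalised by the authors with DESeq. The authors deposited normalised reads per Ensembl gene, with decimal commas. The sorted values of the 8 columns were identical, so the deposited values had been quantile normalised. They run from 1 to 165593, sum to 9442018.6 in each column, are not counts, and carry no depth, so no counting interval can be given. The deposited group averages and log2 ratios of averages were not used, and 1 line without a gene was left out.

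Values were taken as log2(value + 1), and a gene was kept where its mean over all libraries was 10 or more. One model with the 3 groups was fitted over these 12673 genes with limma 3.58.1 (R 4.3.3) with a variance trend. Tests were two-sided, with Benjamini-Hochberg adjustment over all genes tested in each contrast. Fold changes are on the log2(value + 1) scale, which understates the change of low genes. The limma fit was tested on simulated data. Their noise was independent between genes and libraries, so the shared within-group axis was not covered. Alternatives were a pseudocount of 10, no filter, a mean of at least 50, no variance trend, only the 2 groups compared, a replicate block, the side of the within-group axis as a term, and leaving out each library. Same-numbered libraries did not clearly go together in their deviations from group means. In groups of 2 or 3 libraries such deviations cannot show that pairing was absent.

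All members were named. Of the other lists, a gene was named where its adjusted p was below 0.05 in any contrast, together with the 2 most abundant genes that did not pass. Insig2, Scap, Mvk, Dhdds, Lipa, Col3a1, Col1a2, Pdgfrb, Ctsb and Fabp4 were named after their values were seen. The members and lists were chosen with earlier results of these data known. Coordinates are 1-based on mm9 (GENCODE annotation of that build), and near-identical copies were sought with minimap2 (at least 90% identity over at least 50% of a transcript). Promoter sequences are from RefSeq on GRCm38.p6. Hmgcs1, and Nceh1 of the efflux list, were not analysed here, and some other genes of the lists are not reported here.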

Additional observations from a re-analysis of the deposited data

Results flagged for a closer look

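In 4 genes of the neighbouring lists the RA 72 h libraries differed from the RA 12 h libraries by limma's test of that difference, each lower at 72 h. The log2 difference was -0.71 for Abca1 (limma adjusted p = 0.0209), -0.72 for Scd1 (limma adjusted p = 0.00557), -0.93 for Scd2 (limma adjusted p = 0.00619) and -1.0 for Vldlr (limma adjusted p = 0.0255). For Scd1 the 12 h libraries lay above all untreated libraries. For Abca1, Scd2 and Vldlr the 12 h libraries overlapped the untreated ones. Scd1 did not pass without RA 72 h replicate 1 (-0.69, limma adjusted p = 0.0648), and Scd2 did not pass without RA 72 h replicate 2 (-0.86, limma adjusted p = 0.0754) and with no variance trend. Abca1 did not pass in 6 of 15 alternatives, among them without any of the RA 12 h replicates (-0.75, -0.72 and -0.65) and without RA 72 h replicate 2 (-0.56). Vldlr did not pass in 7, among them on leaving out RA 12 h replicate 1 (-0.97), RA 12 h replicate 3 (-0.84), RA 72 h replicate 1 (-0.88) or RA 72 h replicate 2 (-1.12). None of the 7 members differed at an adjusted p below 0.05 in this comparison, Insig1 lying nearest (-0.48, limma adjusted p = 0.0515). Groups of 2 or 3 libraries are too small to look for outlying libraries.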

How the results depend on the processing

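The rise of Insig1 at 12 h was the single difference past the adjusted p among the 7 members, and it passed in all 15 alternatives. The number of members past the adjusted p in limma moved at 72 h against untreated from 0 to 1 with the side of the within-group axis as a term, and from 0 to 1 over the fits that leave out 1 library (1 without untreated replicate 3, Fdft1). At 72 h against 12 h it moved from 0 to 1 with a pseudocount of 10, a mean of at least 50 or only the 2 groups compared, to 2 with the side as a term, and from 0 to 1 over the fits that leave out 1 library (1 without untreated replicate 3 and 1 without RA 72 h replicate 1, Insig1). Counts with the side as a term can be raised by construction, since the axis came from the same values. For the 37 other pathway genes the count at 12 h was 0, or 2 with the side as a term. At 72 h against untreated it was 3, or 1 with a replicate block, 2 with a mean of at least 50, 4 with the side as a term, and 2 to 4 with 1 library left out. At 72 h against 12 h it was 1, or 0 with no filter, no variance trend or a replicate block, 4 with the side as a term, and 0 to 1 with 1 library left out (0 without RA 12 h replicate 1 or 3 or either RA 72 h replicate). Same-numbered libraries deviated with r from -0.47 to 0.42 over 7 pairs, and 2 of 8 libraries correlated best with their own number. These values cannot decide whether the numbers pair the libraries, so the replicate block is given only as a setting. That block moved no member across the threshold. Signs turned in small log2 differences. At 12 h, Fdft1 was -0.0152 with the side as a term and -0.0442 to 0.1296 with 1 library left out (below 0 without untreated replicate 2 or RA 12 h replicate 2), and Fdps -0.0186 to 0.1308 (below 0 without untreated replicate 2). At 72 h against untreated, with 1 library left out, Insig1 ran from -0.0219 (without RA 72 h replicate 1) to 0.3548 (without RA 72 h replicate 2), Cyp51 from -0.0865 to 0.0462 (above 0 without untreated replicate 2 or RA 72 h replicate 2) and Dhcr7 from -0.0072 to 0.0252 (below 0 without untreated replicate 2 or 3 or RA 72 h replicate 1). The cause was not tested. Where 1 of the 2 RA 72 h libraries was left out, the other was assumed to vary like the other groups. Depth is unknown, the 72 h group has 2 libraries, and treatment and time cannot be told apart there.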
